A study of Mus musculus with 12 samples.

Results

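The genes described here are 10 components of insulin signalling in mouse skeletal muscle: Insr, Irs1, Irs2, Grb10, Pik3r1, Pik3ca, Akt1, Akt2, Slc2a4 and Eif4ebp1. They were found through the 30 probe sets that the array's platform annotation assigns to these symbols, and the brightest of a gene's probe sets, averaged over the 12 arrays, stands for it. All 10 genes lay above the filter on dim probe sets and were tested among the 12654 genes that did so, of 18193 with a probe set. The series title concerns STAT5a and STAT5b in muscle growth and fibre composition. Total RNA was labelled with biotin and hybridized to 1-colour Affymetrix arrays, 1 array per animal, and the values are MAS5 signals, a linear intensity. There were 4 groups of 3 mice: KO+GH, lacking Stat5a and Stat5b and given growth hormone (GH), WT+GH, with both genes and GH, KO, lacking both genes without GH, and WT, with both genes and no GH. The label on treatment says that blood cells lack the 2 genes, whereas the title speaks of muscle. The Cre or promoter used, the GH dose and duration, strain, sex and age are not given in the sources used here.

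Insulin binds its receptor, which phosphorylates the adaptors IRS1 and IRS2. These recruit phosphoinositide 3-kinase, made of a regulatory and a catalytic subunit, whose lipid product brings AKT to the membrane. In muscle AKT drives the glucose transporter GLUT4 to the surface and, through mTOR, releases translation from its inhibitor 4E-BP1, while GRB10 dampens the receptor. GH is known to reduce the response of muscle to insulin, and the regulatory subunit p85 alpha is one of the components discussed in that context.

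The promoters of the 3 genes with the widest range between group means are shown because these genes differed most between the 4 groups. The sequences are the 250 bases upstream of the most upstream start listed in RefSeq on build GRCm38.p6, read 5′ to 3′ on the strand of the gene, with capitals marking GGGCGG or its reverse complement CCGCCC and, in Irs1 only, CACGTG. Grb10 lies at chr11:12037421-12037670, Pik3r1 at chr13:101768218-101768467 and Irs1 at chr1:82291440-82291689, all on the minus strand.
Grb10: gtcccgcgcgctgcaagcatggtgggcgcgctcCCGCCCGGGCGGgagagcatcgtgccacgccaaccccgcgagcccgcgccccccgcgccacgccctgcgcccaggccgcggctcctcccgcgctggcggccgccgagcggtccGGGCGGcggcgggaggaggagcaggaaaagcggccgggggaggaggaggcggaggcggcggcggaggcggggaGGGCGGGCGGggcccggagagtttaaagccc
Pik3r1: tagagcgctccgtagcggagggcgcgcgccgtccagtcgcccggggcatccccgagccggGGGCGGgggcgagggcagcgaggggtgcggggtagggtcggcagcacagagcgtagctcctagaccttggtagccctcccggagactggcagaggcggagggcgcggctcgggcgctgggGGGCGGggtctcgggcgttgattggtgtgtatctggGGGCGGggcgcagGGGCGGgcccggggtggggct
Irs1: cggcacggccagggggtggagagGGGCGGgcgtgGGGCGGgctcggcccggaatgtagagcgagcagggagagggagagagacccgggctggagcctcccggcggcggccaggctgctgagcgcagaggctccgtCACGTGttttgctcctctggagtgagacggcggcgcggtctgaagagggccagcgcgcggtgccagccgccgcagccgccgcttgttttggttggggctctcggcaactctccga
The windows held 5, 4 and 2 copies of GGGCGG on either strand, overlapping copies included, in Grb10, Pik3r1 and Irs1. RefSeq windows were found for 7 of the 10 genes, 13 windows in all. GGGCGG, the core of the GC box, was in 7 of these 13 windows and in 32.7% of all 32851 windows. CACGTG, the E-box core, was in 2 of the 13 (Irs1 and Irs2) and in 6.02% of all. TTCNNNGAA, the core that STAT factors bind, was in 1 of the 13 (Akt2) and in 7.02% of all, and GTAAACA, a forkhead core, was in 1 (Akt1) and in 3.17%. All motifs were searched on both strands, and a match describes only the letters of the window.

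The targeted genes matched the KO and WT labels of the groups, and which cells lost them was not tested. Stat5b signal was 333, 378 and 374 in KO+GH and 1694, 1792 and 1896 in WT+GH, so that KO+GH had 20.2% of the WT+GH mean, and without GH KO had 15.2% of WT. For Stat5a the shares were 40.2% with GH and 40.6% without. Fast fibre markers had a median percentile of 100 among all genes with a probe set and hepatocyte markers one of 35.7. Arrays with and without GH differed technically: control transcripts added before labelling had a geometric mean signal of 442 to 467 with GH and 129 to 168 without, and the beta actin 3′ over 5′ ratio was 0.962 to 1.01 in KO+GH, 0.887 to 0.932 in WT+GH and 0.805 to 0.864 without GH. GH and these labelling differences cannot be told apart. Arrays are numbered within a group as names only. WT 1 and KO 3 had the lowest limma array weights (0.319 and 0.421). In whole tissue, fewer cells of a type and less RNA per cell cannot be told apart.

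With GH, Pik3r1 and Grb10 rose in both genotypes, Insr rose and Akt1 fell in WT, and Eif4ebp1 rose and Irs1 fell in KO. The other genotype had the same sign without passing: Insr 0.21 and Akt1 -0.20 in KO, and Eif4ebp1 0.26 and Irs1 -0.19 in WT. No interaction of genotype and GH passed for these genes. Between genotypes, Grb10 was higher in KO than WT without GH, and Irs1 was lower in KO+GH than WT+GH. Tests are limma's on log2(signal + 25), with p adjusted by Benjamini-Hochberg over all 12654 genes and a threshold of 0.05. In WT+GH against WT, 4 of the 10 genes passed, 3 higher and 1 lower, where 19.1% of all genes passed, 7.33% higher and 11.8% lower. In KO+GH against KO, 4 of 10 passed, again 3 higher and 1 lower, where 24.3% of all genes passed, 8.93% higher and 15.4% lower. For KO+GH against WT+GH it was 1 of 10, which was lower, where 4.53% of all genes passed, 2.42% higher and 2.11% lower. For KO against WT it was 1 of 10, which was higher, where 1.45% of all genes passed, 0.774% higher and 0.68% lower. The 10 genes were chosen with earlier results of these data known, so these shares are no test of the set. The arrays of the 2 groups did not overlap for 4 of the 10 genes for GH in WT (34.3% of all genes), for 6 for GH in KO (44.4%), for 6 for genotype with GH (30.0%) and for 1 for genotype without GH (13.2%). The median log2 fold change of the 10 genes was 0.19 for GH in WT (all genes -0.06), -0.06 for GH in KO (all genes -0.06), -0.08 for genotype with GH (all genes -0.02) and -0.03 for genotype without GH (all genes 0.00).

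**Figure D1:**
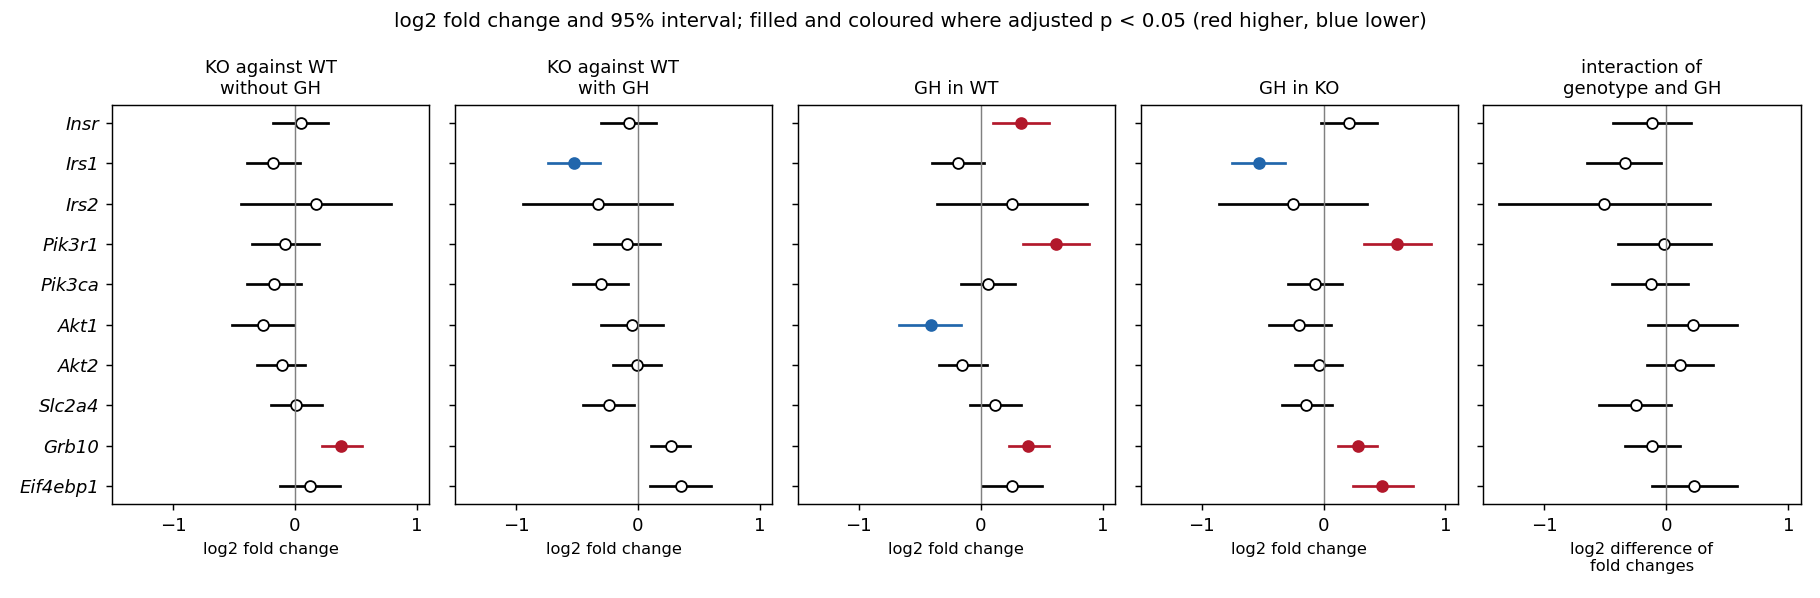
Log2 fold changes of the 10 genes (rows) in the 4 comparisons of 2 groups and, at the right, their interaction, each point with its 95% confidence interval from limma; filled points passed an adjusted p of 0.05, in red where higher and in blue where lower. Pik3r1 sits at 0.62 for GH in WT and at 0.60 for GH in KO, and Irs1 at -0.52 for genotype with GH.

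The number and balance of genes called with GH depended on how the arrays were scaled. Over all genes, the median log2 fold change of GH was -0.055 in WT and -0.065 in KO as deposited. When each array was centred on the median of all probe sets, this median was -0.24 in WT and -0.245 in KO, and calls for GH in WT were 490 higher and 3939 lower, against 927 and 1489 as deposited. For GH in KO they were 643 higher and 4195 lower, against 1130 and 1948. Centring on the genes kept, a choice made after seeing the data, gave 1113 higher and 1097 lower in WT and 1359 and 1362 in KO. Under the first centring Pik3r1 still rose with GH in both genotypes and Irs1 still fell in KO, while Grb10 (0.21 in WT, adjusted p = 0.0619, and 0.10 in KO, adjusted p = 0.377), Insr (0.14 in WT, adjusted p = 0.368) and Eif4ebp1 (0.30 in KO, adjusted p = 0.0831) kept their sign without passing. That centring also called Akt2 (-0.33, adjusted p = 0.0116) and Irs1 (-0.37, adjusted p = 0.0141) lower with GH in WT, and Akt1 (-0.38, adjusted p = 0.0323) and Slc2a4 (-0.32, adjusted p = 0.0189) lower in KO.

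Insr encodes the insulin receptor. Its signal was 1442, 1520 and 1381 in KO+GH, 1498, 1578 and 1500 in WT+GH, 1273, 1336 and 1146 in KO, and 1076, 1458 and 1125 in WT. Every WT+GH array was above every WT array, and every KO+GH array above every KO array. Insr rose by 0.33 ± 0.107 (SE) in WT+GH over WT (adjusted p = 0.0435), and KO+GH over KO was 0.21 (adjusted p = 0.175). The call in WT passed under 11 of 25 alternatives, with adjusted p of 0.00401 to 0.676, and was lost without WT 1 (0.25, adjusted p = 0.125), without WT 3 (0.28, adjusted p = 0.14) and without any 1 of the 6 arrays with GH (adjusted p = 0.0587 to 0.126). Insr has a second probe set above the filter, but it was dim, with signals of 13.7 to 91.2. It gave 0.32 ± 0.394 for GH in WT (adjusted p = 0.625) and -0.08 in KO (adjusted p = 0.91).

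Irs1 encodes the main IRS adaptor of muscle, and has 1 probe set. Its signal was 3358, 3332 and 3377 in KO+GH, 5021, 4778 and 4695 in WT+GH, 4943, 4822 and 4825 in KO, and 6729, 4744 and 5218 in WT. The 3 KO+GH arrays were the lowest of the 12 and lay close together, while the other 9 ranged from 4695 to 6729. Irs1 fell by 0.52 ± 0.1 on the log2 scale in KO+GH against WT+GH (0.696-fold, adjusted p = 0.00522) and by 0.53 in KO+GH against KO (0.692-fold, adjusted p = 0.00146). Without GH, KO against WT was -0.18 (adjusted p = 0.547), and WT+GH against WT -0.19 (adjusted p = 0.212, and -0.29 with adjusted p = 0.0475 without WT 2). The call of KO+GH against WT+GH held under 25 of 26 alternatives and failed with the actin ratio as a covariate, where it was -0.63 with adjusted p = 0.101. The actin ratio of all 3 KO+GH arrays was above that of the WT+GH arrays, so the covariate cannot be separated well from genotype with GH. Stat5a, a deleted gene, also did not pass with it (-0.99, adjusted p = 0.277, against -1.21 and 0.00231 without it).

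Irs2, the other IRS adaptor, had a signal of 355, 312 and 293 in KO+GH, 432, 371 and 424 in WT+GH, 201, 556 and 496 in KO, and 256, 314 and 476 in WT. Its arrays scattered widely without GH, from 201 to 556 in KO. No comparison passed: KO+GH against WT+GH was -0.33 ± 0.286 (adjusted p = 0.635) although the groups did not overlap. KO+GH against KO was -0.25 (adjusted p = 0.574), and without KO 1, the array at 201, it was -0.68 (adjusted p = 0.0258).

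Grb10 encodes an adaptor that binds the activated receptor and inhibits it, and is a target of mTOR complex 1. Its signal was 2668, 2662 and 2676 in KO+GH, 2198, 2193 and 2247 in WT+GH, 2020, 2352 and 2228 in KO, and 1767, 1630 and 1637 in WT. WT was lowest and KO+GH highest, with no overlap with any other group, while WT+GH (2193 to 2247) lay inside the range of KO (2020 to 2352). Grb10 rose by 0.38 ± 0.0758 in KO over WT (30.5% higher, adjusted p = 0.0162), by 0.39 in WT+GH over WT (adjusted p = 0.00219) and by 0.28 in KO+GH over KO (adjusted p = 0.0149), whereas KO+GH over WT+GH was 0.27 (20.4% higher, adjusted p = 0.0598). That last difference passed under 8 of 26 alternatives, among them without WT 1 (0.27, adjusted p = 0.0296) and without KO 1 (0.27, adjusted p = 0.0447). Grb10 was the only one of the 10 genes whose KO and WT arrays did not overlap. The call of KO over WT was lost with only the KO and WT arrays in the fit (adjusted p = 0.294), without KO 2 (adjusted p = 0.0918) or without WT 3 (adjusted p = 0.066), and the other 2 Grb10 probe sets gave 0.04 and 0.14 (neither passed), so the genotype difference rests on the brightest probe set. The call of KO+GH over KO was lost without KO 1 (0.22, adjusted p = 0.0666) and without any 1 KO+GH array (adjusted p = 0.0511 to 0.0522). For GH those probe sets gave 0.68 and 0.50 in WT and 0.92 and 0.25 in KO, and the first of each pair passed (adjusted p = 0.0109 and 0.00117).

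**Figure D2:**
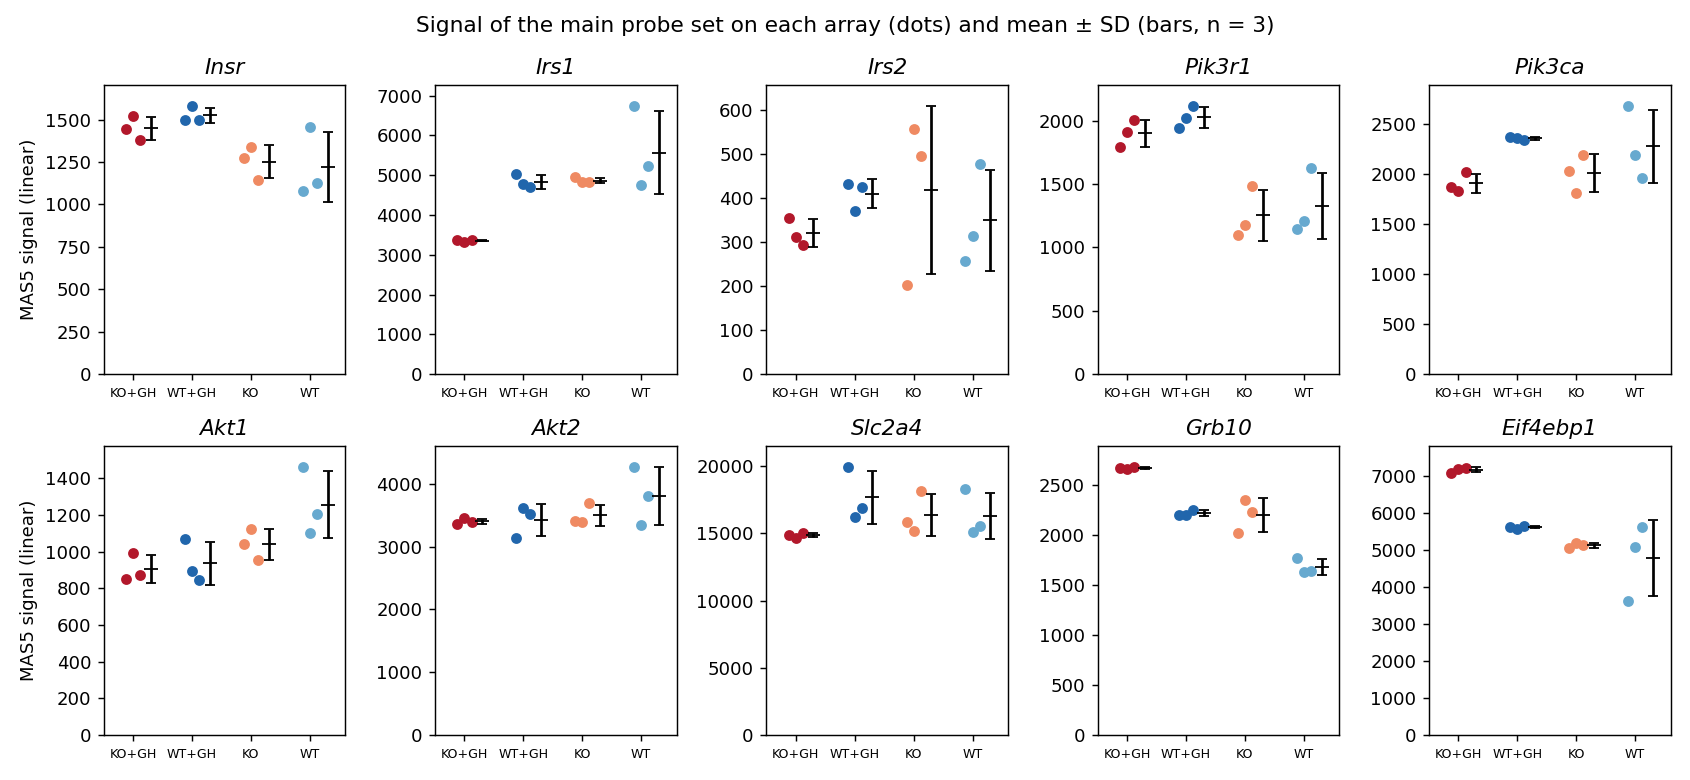
MAS5 signal of the 10 genes on each of the 12 arrays, one panel per gene with its own axis from 0, for KO+GH, WT+GH, KO and WT from left to right; dots are arrays, and the bar beside them is the mean with its SD (n = 3). Irs1 is lowest in KO+GH at 3332 to 3377, and Grb10 lowest in WT at 1630 to 1767.

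Pik3r1 encodes the p85 alpha regulatory subunit of phosphoinositide 3-kinase and its shorter isoforms. Its signal was 1791, 1907 and 2007 in KO+GH, 1946, 2020 and 2114 in WT+GH, 1101, 1174 and 1482 in KO, and 1148, 1205 and 1626 in WT. With GH every array exceeded every array without GH, and the genotypes overlapped at both GH states. Pik3r1 rose by 0.62 ± 0.128 in WT+GH over WT (1.54-fold, adjusted p = 0.00364) and by 0.60 in KO+GH over KO (1.52-fold, adjusted p = 0.00327), and both calls held under all 25 alternatives (adjusted p at most 0.0193 and 0.0188). KO against WT was -0.08 without GH (95% interval -0.35 to 0.20, adjusted p = 0.883) and -0.09 with GH (-0.36 to 0.18, adjusted p = 0.798). All 3 other probe sets rose with GH in both genotypes, by 1.36, 0.43 and 1.07 in WT and by 1.76, 0.68 and 1.09 in KO.

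Pik3ca encodes the p110 alpha catalytic subunit. Its signal was 1873, 1826 and 2016 in KO+GH, 2366, 2363 and 2335 in WT+GH, 2027, 1810 and 2186 in KO, and 2675, 2193 and 1961 in WT. The KO+GH and WT+GH arrays did not overlap, but the difference of -0.30 ± 0.105 did not pass (adjusted p = 0.133), although it did without WT 1 (-0.30, adjusted p = 0.0376). The 4 other probe sets above the filter gave -0.22 to -0.02. GH in WT was 0.06 and GH in KO -0.07, neither of which passed.

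**Figure D3:**
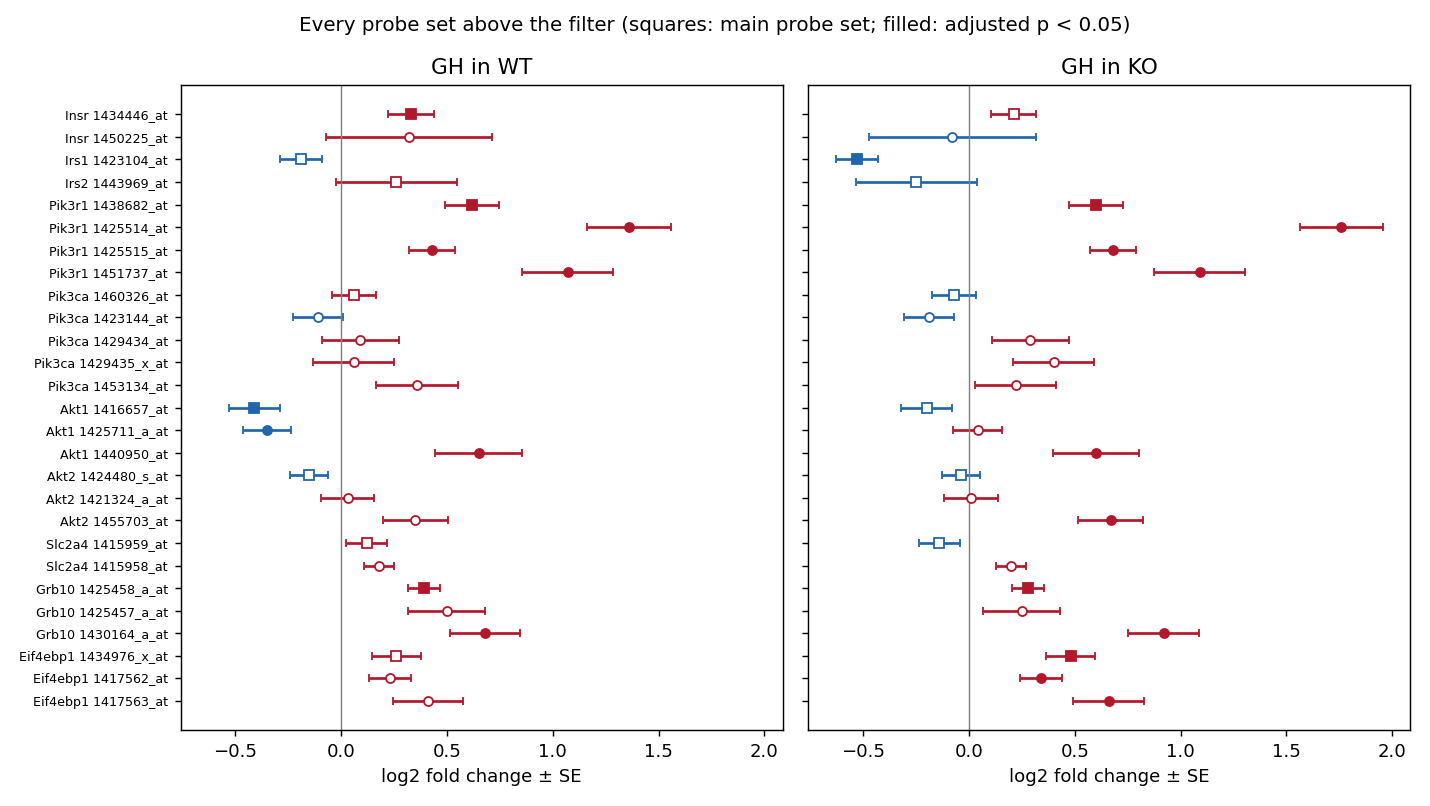
Log2 fold change with its SE of the 27 probe sets of the 10 genes above the filter, for GH in WT (left) and GH in KO (right); squares are the brightest probe set of each gene, circles the others, and filled symbols passed an adjusted p of 0.05. All 4 Pik3r1 probe sets lie above 0 for GH in both genotypes, while those of Akt1 and Akt2 lie on both sides of 0 in both panels.

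Akt1 and Akt2 encode kinases of the same family, of which AKT2 is the one tied most closely to glucose uptake. Akt1 signal was 850, 995 and 871 in KO+GH, 1071, 894 and 847 in WT+GH, 1043, 1123 and 955 in KO, and 1462, 1104 and 1207 in WT. Every WT array was above every WT+GH array, and Akt1 fell by 0.41 ± 0.12 in WT+GH (adjusted p = 0.0263); KO+GH against KO was -0.20 (adjusted p = 0.256). This fall in WT passed under 18 of 25 alternatives. It was lost without WT 1 (-0.30, adjusted p = 0.0884), WT+GH 2 (adjusted p = 0.0879) or WT+GH 3 (adjusted p = 0.11). It was also lost with only the 6 arrays compared (adjusted p = 0.0565) and with eBayes without trend (0.0516). Probe sets of Akt1 disagreed in direction: one gave -0.35 in WT (adjusted p = 0.045) and another 0.65 in WT and 0.60 in KO (adjusted p = 0.0372 and 0.0466). With all Akt1 probe sets averaged, GH in WT was -0.04 (adjusted p = 0.807). Akt2 signal was 3370, 3452 and 3398 in KO+GH, 3134, 3622 and 3526 in WT+GH, 3418, 3395 and 3696 in KO, and 4268, 3345 and 3814 in WT. Akt2 did not pass in any comparison with its brightest probe set, and its largest difference was -0.15 for GH in WT (95% interval -0.34 to 0.05). A dimmer Akt2 probe set gave 0.67 for GH in KO (adjusted p = 0.00539), where the brightest gave -0.04.

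Slc2a4 encodes the insulin-responsive glucose transporter GLUT4. Its signal was 14915, 14694 and 15020 in KO+GH, 19941, 16227 and 16909 in WT+GH, 15829, 15180 and 18156 in KO, and 18294, 15076 and 15520 in WT. KO+GH lay below WT+GH and KO on every array, by -0.24 ± 0.0982 (adjusted p = 0.215) and by -0.14 (adjusted p = 0.346), and no comparison passed. Its second probe set gave -0.02 and 0.20 for these comparisons. Eif4ebp1 encodes 4E-BP1, the translation inhibitor, and its brightest probe set is of the _x_at kind, which may also bind other transcripts. Its signal was 7100, 7199 and 7235 in KO+GH, 5638, 5586 and 5641 in WT+GH, 5052, 5191 and 5144 in KO, and 3627, 5097 and 5625 in WT. The KO+GH arrays were the highest of the 12, and WT ranged more widely than any other group. Eif4ebp1 rose by 0.48 ± 0.116 in KO+GH over KO (39.8% higher, adjusted p = 0.00739), with its other probe sets at 0.34 and 0.66 (both passed). WT+GH over WT was 0.26 (adjusted p = 0.14), and passed without WT 3 (0.38, adjusted p = 0.0327). KO+GH over WT+GH was 0.35 (27.6% higher, adjusted p = 0.115), and passed under 4 of 26 alternatives: with array weights (adjusted p = 0.0042), with only the 6 arrays compared (0.000571), without WT 1 (0.0016) and without WT 1 and KO 3 together (0.00114).

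Whether genotype changed the GH effect was asked through the interaction, (KO+GH minus WT+GH) minus (KO minus WT). None of the 10 genes passed by limma, where 0.933% of all genes passed. The lowest adjusted p of the 10 was that of Irs1, at -0.34 ± 0.141 (95% interval -0.65 to -0.04, adjusted p = 0.399). For Eif4ebp1 the interaction was 0.23 (adjusted p = 0.692), for Slc2a4 -0.25 (0.563) and for Irs2 -0.51 ± 0.404 (0.727). Without WT 1 the interaction of Irs1 was -0.49 (adjusted p = 0.0126) and that of Eif4ebp1 0.41 (adjusted p = 0.0285), so these 2 results rest on whether that array, which was highest for Irs1 and lowest for Eif4ebp1 among the WT arrays, is in the fit. For the other 9 genes the 95% intervals held 0, for example -0.40 to 0.37 for Pik3r1.

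A wider list of 74 insulin pathway genes, which excludes the 10 genes, left 63 above the filter. For GH in WT 10 were higher and 12 lower, for GH in KO 10 higher and 8 lower, for KO+GH against WT+GH 2 higher and 4 lower, and for KO against WT 0 higher and 1 lower. With arrays centred on the median of all probe sets, the counts for GH were 8 higher and 20 lower in WT and 7 higher and 18 lower in KO, so that the balance in KO turned. Over all genes the same centring gave 490 higher and 3939 lower in WT, and 643 higher and 4195 lower in KO. As deposited, the called genes are 34.9%, 28.6%, 9.52% and 1.59% of the 63, where all genes gave 19.1%, 24.3%, 4.53% and 1.45%. The list was chosen with earlier results of these data known, so these shares are no test of the pathway. At the receptor, Ptpn1, a phosphatase that removes phosphate from the insulin receptor, rose with GH by 1.04 in WT and 1.56 in KO (adjusted p = 2.13e-06 and 2.37e-08), and was 0.49 higher in KO+GH than WT+GH (adjusted p = 0.00399), a call that ended with the actin ratio as a covariate (0.34, adjusted p = 0.431). Igf1r, the receptor for IGF1, rose with GH by 0.50 in WT and 0.74 in KO (adjusted p = 0.00336 and 0.000136). It was 0.43 higher in KO+GH than WT+GH (adjusted p = 0.0238), a call lost without any 1 KO+GH array (adjusted p = 0.0676 to 0.135), without WT+GH 1 (0.0956) or WT+GH 2 (0.0844), with the actin covariate (0.382) and with probe sets averaged (0.32, adjusted p = 0.261). Gab1, an adaptor that recruits phosphoinositide 3-kinase, was 802, 797 and 827 in KO+GH, 1528, 1348 and 1470 in WT+GH, 609, 754 and 743 in KO, and 755, 800 and 728 in WT. It rose by 0.91 in WT+GH over WT, and KO+GH against WT+GH was -0.82 (adjusted p = 2.1e-05 and 8.58e-05).

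**Figure D4:**
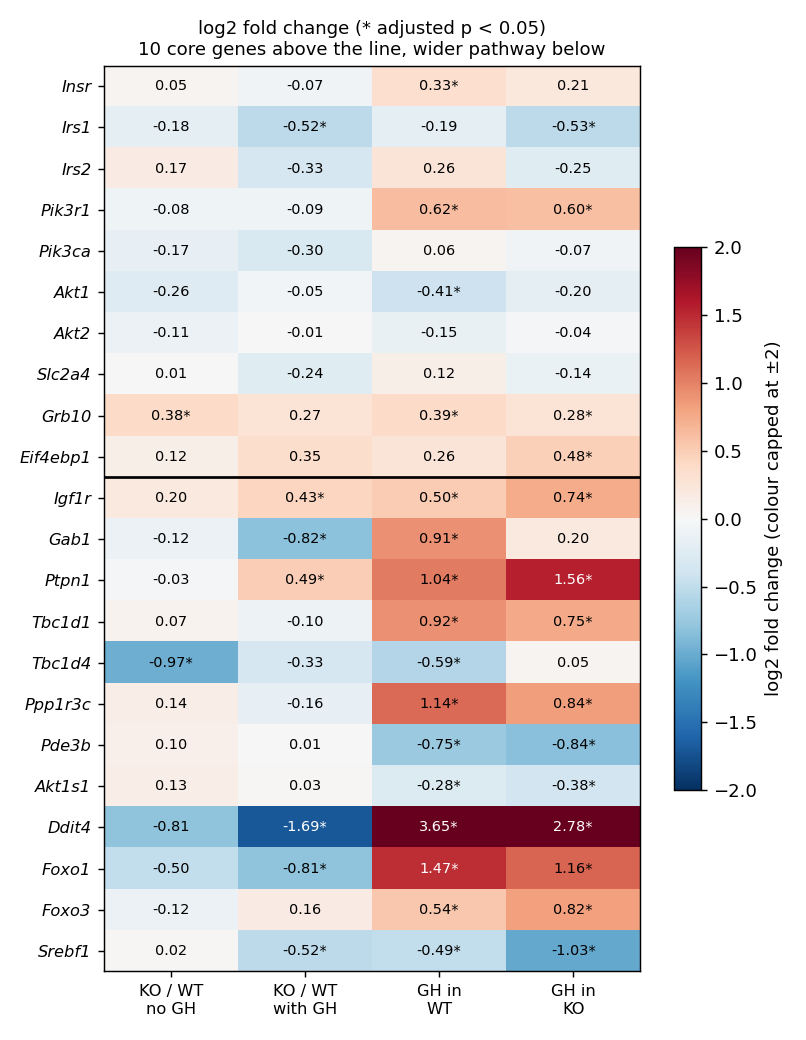
Log2 fold changes of the 10 genes (above the line) and the 12 named genes of the wider pathway (below it) in the 4 comparisons of 2 groups; colour follows the value, capped at 2 in either direction, and an asterisk marks an adjusted p under 0.05. Ddit4 is at 3.65 for GH in WT and Tbc1d4 at -0.97 for KO against WT.

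Downstream, Tbc1d4, encoding AS160, an AKT substrate that holds GLUT4 inside the cell, was 704, 750 and 684 in KO+GH, 963, 889 and 864 in WT+GH, 581, 682 and 818 in KO, and 1441, 1268 and 1423 in WT. It fell in KO against WT by 0.97 ± 0.113 (0.509-fold, adjusted p = 0.000262), and this was the only pathway gene of the wider list to pass there. For GH in WT it was -0.59 (adjusted p = 0.00218), but its 2 probe sets ran from -0.59 to 0.28. That call was lost with probe sets averaged (-0.15, adjusted p = 0.695). KO+GH against WT+GH did not pass for Tbc1d4 (-0.33, adjusted p = 0.126), where its probe sets ran from -1.24 to -0.33. Its relative Tbc1d1 rose with GH by 0.92 in WT and 0.75 in KO (adjusted p = 0.00156 and 0.00471). Of the FOXO factors, which AKT keeps out of the nucleus, Foxo1 rose with GH by 1.47 in WT and 1.16 in KO (adjusted p = 2.37e-06 and 1.5e-05) and Foxo3 by 0.54 and 0.82 (0.00106 and 2.51e-05), and Foxo1 was lower in KO+GH than WT+GH (-0.81, adjusted p = 0.00104). Ddit4, an inhibitor of mTOR complex 1, rose by 3.65 and 2.78 with GH and KO+GH against WT+GH was -1.69 (adjusted p = 7.24e-08, 3.54e-07 and 0.000101). Ppp1r3c, a glycogen targeting subunit of protein phosphatase 1, rose with GH by 1.14 in WT and 0.84 in KO (adjusted p = 0.0004 and 0.00275). Pde3b, a phosphodiesterase that AKT activates, fell by 0.75 in WT and by 0.84 in KO (adjusted p = 0.000134 and 3.63e-05). Srebf1, a lipogenic transcription factor, fell with GH by 0.49 in WT and by 1.03 in KO (adjusted p = 0.00168 and 1.82e-06). KO+GH against WT+GH was -0.52 for Srebf1 (adjusted p = 0.00257), and -0.58 with the actin covariate, where it did not pass (adjusted p = 0.104). Akt1s1, encoding the AKT substrate PRAS40, fell with GH by 0.28 in WT and by 0.38 in KO (adjusted p = 0.00729 and 0.000715), but its 3 probe sets ran from -0.51 to 0.12 in KO, and neither call held with probe sets averaged (adjusted p = 0.384 in WT and 0.0749 in KO).

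Markers of fibre types and of other cells were counted in the same comparisons. With GH, 7.33% of all genes rose and 11.8% fell in WT, and 8.93% rose and 15.4% fell in KO. For KO against WT, 0.774% of all genes were higher and 0.68% lower. In lists this short, 1 called marker was not taken as a change of a cell type. Of 7 slow fibre markers, 6 rose in KO against WT and 6 in WT+GH against WT, with summed signals of 36002 to 37022 in KO+GH, 30539 to 32373 in WT+GH, 38559 to 48267 in KO and 11748 to 32893 in WT. With GH, 2 of 3 neutrophil markers rose in both genotypes, with summed signals of 1217 to 1414 in KO+GH, 2266 to 2344 in WT+GH, 134 to 188 in KO and 197 to 278 in WT. Of 5 macrophage markers 2 fell with GH in WT and 4 in KO, with summed signals of 3912 to 3975 in KO+GH, 4084 to 4363 in WT+GH, 4971 to 6252 in KO and 5296 to 7244 in WT. Of 9 fast fibre markers 6 fell and 1 rose in KO+GH against KO, with summed signals of 362276 to 381587 in KO+GH and 423128 to 525239 in KO. Of 4 adipocyte markers 2 fell with GH in each genotype, with summed signals of 33622 to 36516 in KO+GH, 33783 to 36484 in WT+GH, 38203 to 63844 in KO and 37353 to 54281 in WT. Summed smooth muscle markers were 2477 to 2624 in KO+GH and 2436 to 2842 in WT+GH, against 3570 to 4062 in KO and 3375 to 3660 in WT; of the 3, 1 rose and 1 fell with GH in KO and 1 fell in WT. Summed fibroblast markers were 50207 to 51208 in KO+GH and 48706 to 58549 in WT+GH, against 59982 to 65364 in KO and 61275 to 66718 in WT, and 1 of 4 fell with GH in each genotype. Summed Schwann cell markers were 2787 to 3069 in KO+GH and 2434 to 2530 in WT+GH, against 1502 to 2020 in KO and 1757 to 1788 in WT, and 1 of 2 rose with GH in each genotype. Of 5 endothelial markers 1 rose and 2 fell with GH in each genotype, with summed signals of 4676 to 5310 in KO+GH, 4584 to 5110 in WT+GH, 4461 to 4834 in KO and 4429 to 4979 in WT. The part of all these markers in the changes of the insulin signalling genes was not tested.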

How the data were processed

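RNA of 12 muscle samples was measured on 1-colour arrays. The deposited values are linear intensity (signal) per probe set, made by MAS5 per the submitters' processing notes, which give no version. Trimmed by 2% at each end, the mean of every array was 500, so the authors' intensity had been scaled to a common target. Samples were grouped by the labels. Animal numbers in the titles differ between all arrays, which were therefore taken as separate animals. All arrays with GH have numbers that begin with the letter M, and no array without GH does. GH therefore cannot be told apart from whatever this numbering reflects. P-values set the differences of group means against the spread between arrays of the same group, and the small number of arrays limits the precision.

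Values were taken as log2(signal + 25). Control probe sets (64), those of several symbols (932) and those without a symbol (9160) were left out, and 34945 probe sets of 18193 genes remained. The brightest probe set stood for each gene, and a gene was kept where its mean exceeded the 40th percentile over probe sets (log2 6.253), which left 12654. Under R 4.3.3, limma 3.58.1 (statmod 1.5.0) fitted 1 mean per group over 12 arrays (8 residual degrees of freedom) with eBayes, trended and robust. The 5 comparisons had 2-sided p adjusted by Benjamini-Hochberg, threshold 0.05; ± is the standard error. Other probe sets were tested in a fit over 22839 probe sets above the filter. "Rose" and "fell" mean past the threshold. The method was tested on simulated data in which few genes were changed. In the real data GH gave 2416 calls in WT and 3078 in KO, which makes the adjusted threshold less strict. The simulated shares therefore need not hold for the GH comparisons. For the 4 comparisons of 2 groups it called 6% to 16% of 1.3-fold changes and 36% to 54% of 1.5-fold changes. For the interaction it called 0% and 22%. A gene that did not pass may therefore still have changed by such amounts.

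Named were all 10 genes, Stat5a and Stat5b, in each comparison up to 8 genes of the pathway list with the smallest adjusted p past the threshold, and the 2 most alike genes of the 3 members with the widest range. Igf1r, Srebf1, Tbc1d4 and Akt1s1 for GH in WT, and Tbc1d1 and Ppp1r3c for GH in KO, were named after their values were seen. The members and gene lists were chosen with earlier results of these data known. Alternatives changed the pseudocount (1 and 100), the filter (none and 60th percentile), normalization, probe set choice, eBayes settings, array weights, the actin ratio as a covariate, the arrays fitted and each replicate left out. Promoters were taken from RefSeq for GRCm38.p6.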

Additional observations from a re-analysis of the deposited data

Results flagged for a closer look

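The interaction of genotype and GH, which tests the difference of the GH effects itself, passed the threshold for 2 of the listed genes. They were Gab1, of the 63 pathway genes above the filter, and Atp2a2, of the 7 slow fibre markers. Every list was searched, those of all other cell types included. Of all genes 0.933% passed, and both calls were lost under some alternatives. Gab1 had an interaction of -0.70 ± 0.138 (adjusted p = 0.0219): it rose by 0.91 in WT+GH over WT, while KO+GH over KO was 0.20. The call was lost with the actin ratio as a covariate (-0.75, adjusted p = 0.136), with eBayes without trend (adjusted p = 0.0542) and without KO 2, KO+GH 1, KO+GH 2, WT 3, WT+GH 1 or WT+GH 3 (adjusted p = 0.0532 to 0.0795). Atp2a2, a slow fibre marker, had an interaction of -1.05 ± 0.175 (adjusted p = 0.00629), a call lost with probe sets averaged (-0.30, adjusted p = 0.49), with the actin covariate (-0.92, adjusted p = 0.135) and with eBayes without trend (adjusted p = 0.0514). Its signals were 6461, 6091 and 6570 in KO+GH, 8434, 7610 and 7794 in WT+GH, 6344, 7244 and 8040 in KO, and 3777, 5496 and 3864 in WT. Over the 7 slow fibre markers the median interaction was -1.95, and only Atp2a2 passed.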

How the results depend on the processing

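Of the 10 genes, the number that passed was recomputed under each alternative. For KO against WT (1 of 10) it was 0 with eBayes without trend, when a gene's probe sets were averaged and with only the 6 arrays compared, and 0 to 1 when each array was left out, with 0 without KO 2 and without WT 3. For KO+GH against WT+GH (1 of 10) it was 4 with array weights, 4 with only the 6 arrays compared, 4 without WT 1 and KO 3 together, 2 with the filter at the 60th percentile, 2 with quantile normalization, 2 with median centring of the genes kept (an alternative chosen after seeing the data) and 0 with the actin covariate, and 1 to 4 over arrays left out, with 4 without WT 1 and 2 without KO 1. For GH in WT (4 of 10) it was 2 with eBayes without trend, with probe sets averaged, with only the 6 arrays compared and without WT 1 and KO 3 together, and 2 to 5 over arrays left out, with 2 without WT 1, WT+GH 2 or WT+GH 3. For GH in KO (4 of 10) it was 3 to 4 over arrays left out. For the interaction (0 of 10) it was 2 without WT 1 and KO 3 together and 0 to 2 over arrays left out, with 2 without WT 1. Direction reversed for Akt1 with a dimmer probe set (0.65 in WT and 0.60 in KO) and for Akt2 with another (0.67 in KO); the cause was not tested.

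Over all genes, KO against WT gave 184 calls, 111 with eBayes without trend and 39 with only the 6 arrays compared. KO+GH against WT+GH gave 573 calls, 1362 with array weights, 1302 with only the 6 arrays compared, 1028 without WT 1 and KO 3, 120 with the actin covariate and 351 to 364 without any 1 KO+GH array. GH gave 2416 calls in WT and 3078 in KO, and 4429 and 4838 with median centring on all probe sets. The interaction gave 118 calls, 214 with array weights, 208 without WT 1 and KO 3, 77 with eBayes without trend, 46 with the actin covariate, and 75 and 76 without KO+GH 1 and KO+GH 2. In the pathway list KO+GH against WT+GH gave 6 calls, 10 with array weights or only the 6 arrays compared, and 3 with the actin covariate; KO against WT gave 1, and 2 or 3 under 6 alternatives; the interaction gave 1, and 0 to 4. No paired analysis was possible because the labels give no number that links an animal of one group to one of another. Signals without depth or detection calls give no limit by counting.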

Other observations

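For the 3 insulin signalling genes with the widest range between group means (0.71 on the log2 scale for Irs1, 0.69 for Pik3r1 and 0.66 for Grb10), the genes whose log2 values followed them most closely over the 12 arrays were Slc25a46 (Pearson r = 0.977) and Birc2 (0.966) for Irs1, Mapk1ip1 (0.968) and Ipo8 (0.965) for Pik3r1, and Exoc7 (0.982) and Togaram2 (0.97) for Grb10. These r describe arrays that share the 4 groups and the labelling difference between arrays with and without GH. Among the 6 arrays with GH alone the r of Ipo8 with Pik3r1 was 0.06, whereas it was 0.97 among the 6 without GH. Replicates of the 10 genes were closest in the KO+GH group: the median standard deviation was 0.043 in KO+GH, 0.054 in WT+GH, 0.112 in KO and 0.228 in WT on the log2 scale, against 0.1, 0.135, 0.166 and 0.177 over all genes.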
